A study of Mus musculus with 2 samples.

Results

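The 40 genes described here are transcripts whose level rises as a cell copies its DNA and divides, and they were taken by symbol from the 33696 mouse features of the gene expression library. All 40 were found. They fall into 14 S-phase genes, 23 genes of G2 and mitosis (G2/M), and 3 genes (Stmn1, Tubb5 and Hmgb2) that dividing cells raise but that many resting cells also express. The cells were CD45+ leukocytes sorted from subcutaneous MC38 tumours, a mouse colon carcinoma line, grown in mice that carry human Fc gamma receptors (labelled Human FCR). Every mouse in the library bore such a tumour and was sampled 4 days after treatment. Treated mice received 2 injections, 3 days apart, of 100 µg of an antibody against mouse GITR, a costimulatory receptor of T cells, with a human IgG1 Fc. The library held mice 7 to 12: 1 Untreated mouse (PBS), 1 mouse given the N297A form, an Fc change known to remove the Fc sugar and most receptor binding, 2 given GA-aFuc and 2 given GITR/Syn GA-aFuc. The deposited labels call N297A an agonist with a null Fc and GA-aFuc an agonist with an enhanced Fc. They call GITR/Syn GA-aFuc a non-agonist with an enhanced Fc. Mice given either GA-aFuc form are called Fc-enhanced below, after these labels. The Fc-enhanced group thus pools an agonist with a non-agonist. It is set against an Untreated mouse and a mouse given an agonist. The mouse is the replicate, and with single Untreated and N297A mice the spread in every test came from the GA-aFuc pair and the GITR/Syn GA-aFuc pair.

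A dividing cell licenses its replication origins with the MCM helicase, copies DNA with PCNA as the sliding clamp, and makes deoxynucleotides through ribonucleotide reductase and thymidylate synthase. Cyclins E, A and B bind cyclin-dependent kinases in turn, and the mitotic genes then build the spindle and kinetochores, condense chromosomes and direct cytokinesis. E2F factors drive the S-phase genes, whereas many G2/M genes are repressed in resting cells through a short promoter element called CHR and activated through CCAAT boxes. In tumours, activated CD8 T cells and some macrophages are known to divide.

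The deposited annotation placed 10476 cells in the library, 1540 to 1925 per mouse, in 10 cell types and 58 clusters. The median depth per cell was 12075 UMIs (unique molecular identifiers, counts of single captured transcripts), with mouse medians of 10461 to 13084. Each of the 10476 cells carried the hashtag of its assigned mouse most often, and the library shared 34 barcodes with the other library. Summed markers were highest in the type they name for 7 of the 10 types. Monocyte and NK markers were higher in the 27 cells labelled pDC, and CD4 T cell markers were higher in cells labelled CD8 (1138 against 1042 CPM, UMIs of a gene or list per 1000000 UMIs). The 40 members together had 366323 UMIs, from 1343 for Kif20a to 78671 for Hmgb2, or 2770 CPM. Droplets of 1 to 50 UMIs, which hold free RNA, carried the members at 2375 CPM, and the part of free RNA in the values below was not tested.

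CD8 T cells had the highest mean member level among the types with at least 200 cells, at 4861 ± 953 CPM (SD, n = 6 mice), followed by macrophages at 3311 ± 355 CPM and NK cells at 2904 ± 520 CPM. Type 2 conventional dendritic cells (cDC2) had 2047 ± 704 CPM, and monocytes had 839 ± 87.6 CPM. Cells were called cycling when they held at least 5 UMIs of the 37 members other than Stmn1, Tubb5 and Hmgb2 after each cell was thinned to 3000 UMIs. By that rule 2034 of 10329 cells (19.7%, exact 95% interval 18.9 to 20.5%, counting error only) were cycling, and 147 shallower cells were left out. The cut divides a continuous range: 464 cells held 4 UMIs and 285 held 5. Without thinning the share was 52.4%, and cycling cells held a median of 18107 UMIs against 11141 in the others.

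The cycling share followed the same order as the level. It was 31.4 ± 9.32% in CD8 T cells, 28.9 ± 4.53% in macrophages, 17.7 ± 4.12% in NK cells, 9.48 ± 5.77% in cDC2 and 2.09 ± 1.13% in monocytes (SD, n = 6 mice). CD8 T cells and macrophages overlapped widely across mice. The CD8 share was 37.7% in the Untreated mouse, 28.1% in the N297A mouse, 29.4% and 29.5% after GA-aFuc, and 18.2% and 45.6% after GITR/Syn GA-aFuc. The macrophage share was 27.0% and 32.2% in the Untreated and N297A mice, 32.7% and 20.6% with GA-aFuc, and 30.01% and 30.9% with GITR/Syn GA-aFuc. The GITR/Syn GA-aFuc pair thus held both the lowest and the highest CD8 share. Every mouse had its monocyte share below its cDC2 share, the smallest gap being in the GITR/Syn GA-aFuc mouse with 3.36% of monocytes and 3.85% of cDC2.

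**Figure D1:**
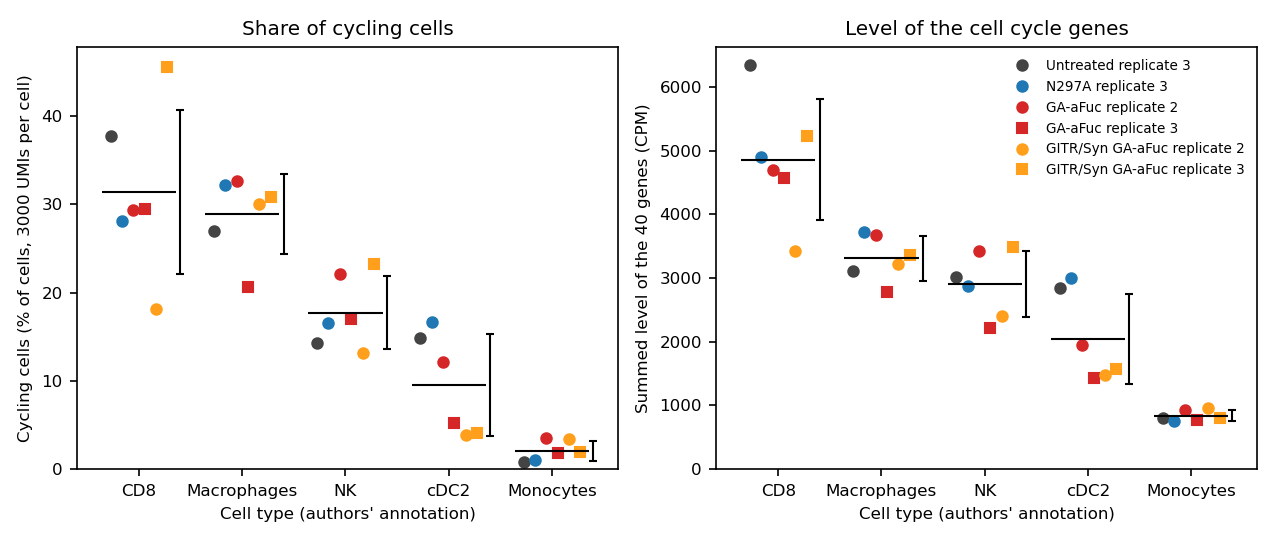
Cycling cells and member level by cell type. Points are the 6 mice of the library, coloured by treatment, horizontal lines are means and error bars are SDs over the mice (left, % of cells; right, CPM). CD8 T cells and macrophages lie highest and overlap, and monocytes lie lowest in both measures (2.09% cycling and 839 CPM).

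The rarer types were pooled over mice. In type 1 conventional dendritic cells (cDC1) 16 of 48 cells (33.3%) were cycling, and in CD4 T cells 4 of 63 (6.35%). No cycling cell was found among 23 regulatory T cells, 53 mature regulatory dendritic cells (mregDC) or 27 plasmacytoid dendritic cells (pDC), with exact 95% upper limits of 14.8%, 6.72% and 12.8% (13%, 5.66% and 11.1% when the limit is taken as 3 cells of the total). The pDC were the type with the lowest member level, at 505.6 CPM. Macrophages made up 54.6% of the cells and held 81.5% of all cycling cells, while monocytes, 29.8% of the cells, held 2.95%. Among the 60 cycling monocytes, 50 had more S-phase than G2/M UMIs. Their summed macrophage markers stood at 14150 CPM against 10960 CPM in the other monocytes, and their monocyte markers at 2665 against 5642 CPM. The part of this shift in marker level in the monocyte share was not tested.

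Single members followed the order of the types in most cases. Mki67, the proliferation antigen Ki-67 that coats mitotic chromosomes, had 188 CPM in CD8 T cells, 129 in cDC1, 128 in macrophages, 113 in NK cells, 66.1 in cDC2, 12.4 in monocytes and 4.36 in pDC. Top2a, the topoisomerase that untangles replicated DNA, had 338 CPM in CD8 T cells, 17 in monocytes, 14.0 in mregDC and 4.36 in pDC. Ccnb1, cyclin B1, was at 25.6 CPM in CD8 T cells, 20.2 in macrophages, 11.1 in NK cells and 1.10 in monocytes. The G2/M genes separated the types more than the S-phase genes did. Summed G2/M members were at 1750 CPM in CD8 T cells and 135 in monocytes, whereas S-phase members were at 1156 and 259 CPM. Pcna, the replication clamp, which also serves in DNA repair, was at 250.1 CPM in CD8 T cells, 190.1 in macrophages, 190.0 in NK cells and still 110.2 in monocytes. Mcm5, a subunit of the replicative helicase, had 70.4 CPM in CD8 T cells and 14.4 in monocytes. Stmn1, which destabilizes microtubules, had 408.7 CPM in CD8 T cells and 22.1 in monocytes.

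Within the types, cycling cells were gathered in few of the authors' clusters. Among the 57 clusters with at least 20 cells, 8 had at least 50% cycling cells, and they held 1377 of the 2034 cycling cells (67.7%). They were macrophage clusters 56 (100%), 13 (99.7%), 17 (99.6%), 24 (95.6%), 4 (88.3%) and 53 (51.4% of 37 cells), CD8 cluster 38 (100% of 92 cells) and NK cluster 58 (98.0% of 51 cells). A cDC2 cluster of 18 cells, cluster 64, was all cycling as well but under that size. Just below the limit of 50% lay macrophage cluster 45 (44.7%), CD8 cluster 33 (44.6%) and cDC1 cluster 60 (33.3%). The clusters were made from the expression of these same cells, so the shares describe them and are no test. The 6 macrophage clusters and cluster 45 held 1290 cycling macrophages (77.9% of all of them), and in the other macrophages 367 of 4254 (8.63%) were cycling, with a member level of 1162 CPM.

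The macrophage clusters differed in which members they carried. Cluster 4 held 309 cells with more S-phase than G2/M UMIs and 18 with the reverse. In cluster 17 the numbers were 90 and 167, in cluster 13 they were 2 and 324, and in cluster 56 they were 0 and 69. Mcm5 was highest in cluster 4 (187 CPM) and lower in clusters 17 (151), 13 (59.8) and 56 (20.2). Rrm2, the regulated subunit of ribonucleotide reductase, was highest in cluster 17 at 208 CPM, against 91.9 in cluster 4 and 73.7 in cluster 13. Top2a had 236 CPM in cluster 4, 796 in 17, 1003 in 13 and 953 in 56, and it dropped to 168 in cluster 24. Ube2c, the ubiquitin-conjugating enzyme of the anaphase-promoting complex, had 10.9 CPM in cluster 4, 70.9 in 17, 363 in 13 and 903 in 56. Cdc20, the activator of that complex, had its highest level late as well, at 238 CPM in cluster 56 and 208 in cluster 24, against 60.7 in cluster 13. Ccnb2, cyclin B2, stayed at 246 CPM in cluster 24 and 223 in cluster 45. Of the 14 S-phase members, 8 had their highest level in cluster 4 and 6 in cluster 17 (Pcna, Tyms, Rrm1, Rrm2, Ccne1 and Ccne2). Of the 23 G2/M members, 18 were highest in cluster 56 and 5 in cluster 13 (Mki67, Top2a, Aurkb, Bub1 and Kif11).

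**Figure D2:**
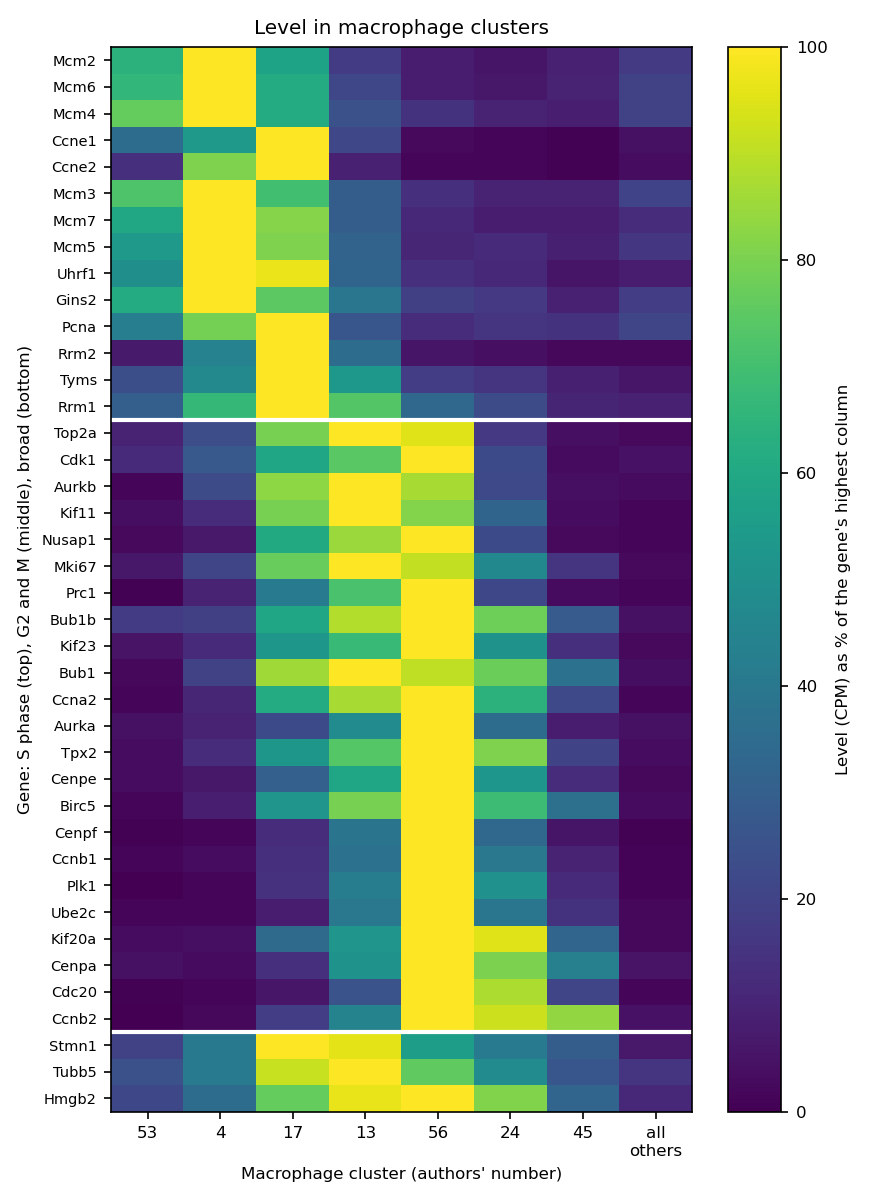
Level of each member across the macrophage clusters, as a share of that gene's highest cluster. S-phase members peak in clusters 4 and 17, and G2/M members in clusters 13 and 56 (Ube2c, 903 CPM in cluster 56).

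The promoters of the members differed in the same grouping. RefSeq promoter windows, from 250 bases before to 50 bases after the first listed transcription start, were matched for 32 of the 40 members (11 S-phase, 19 G2/M, 2 of the other 3). The windows are on build GRCm38.p6, an earlier build than the GRCm39 of the counts, so they were joined by symbol only. Both strands were searched for the letters of 3 motifs. For CHR they were TTTGAA, with a second form TTCGAA counted as well. For the CCAAT box they were the letters of its name. For E2F they were TTCCCGC, with TTGGCGC counted as a further form that can share bases with a CCAAT box on the other strand. A CHR match was present in 15 of 19 G2/M promoters (78.9%), 2 of 11 S-phase promoters (18.2%) and 19.4% of all 27025 windows. An E2F match was present in 6 of 11 S-phase promoters (54.5%), 3 of 19 G2/M promoters (15.8%) and 6.93% of all windows. CCAAT was present in 89.5% of G2/M, 81.8% of S-phase and 37.9% of all windows. A match is a run of letters and not a shown binding site. The 250 bases before the start are printed for 2 S-phase genes of the early clusters (Mcm5 and Rrm1), for Mki67 and Top2a, which peak in cluster 13, and for Ube2c and Cdc20, which peak in cluster 56. They run 5′ to 3′ on the gene's strand, with matches to any of the motifs on either strand in capitals. Mcm5 lies at chr8:75109259-75109508 (+), Rrm1 at chr7:102441445-102441694 (+), Mki67 at chr7:135716380-135716629 (−), Top2a at chr11:99024190-99024439 (−), Ube2c at chr2:164769679-164769928 (+) and Cdc20 at chr4:118437344-118437593 (−).
Mcm5: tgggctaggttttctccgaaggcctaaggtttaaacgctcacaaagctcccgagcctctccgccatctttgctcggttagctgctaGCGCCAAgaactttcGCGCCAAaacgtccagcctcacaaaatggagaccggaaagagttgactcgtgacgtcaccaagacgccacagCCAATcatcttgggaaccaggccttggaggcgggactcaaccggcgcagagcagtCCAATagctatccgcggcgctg
Rrm1: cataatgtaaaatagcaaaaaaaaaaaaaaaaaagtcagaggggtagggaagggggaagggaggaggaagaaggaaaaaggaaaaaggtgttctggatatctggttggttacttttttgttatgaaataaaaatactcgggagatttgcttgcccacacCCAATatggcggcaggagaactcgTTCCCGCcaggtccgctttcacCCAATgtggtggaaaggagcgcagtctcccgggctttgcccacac
Mki67: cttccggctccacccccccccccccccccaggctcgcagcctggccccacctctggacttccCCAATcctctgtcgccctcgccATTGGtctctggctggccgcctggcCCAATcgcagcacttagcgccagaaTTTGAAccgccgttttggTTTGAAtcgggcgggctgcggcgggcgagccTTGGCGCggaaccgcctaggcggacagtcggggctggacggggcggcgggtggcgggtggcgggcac
Top2a: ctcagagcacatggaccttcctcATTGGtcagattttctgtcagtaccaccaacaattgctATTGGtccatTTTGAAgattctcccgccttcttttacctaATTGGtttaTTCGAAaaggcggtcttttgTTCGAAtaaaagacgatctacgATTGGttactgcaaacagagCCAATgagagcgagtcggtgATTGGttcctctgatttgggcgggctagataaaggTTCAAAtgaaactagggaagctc
Ube2c: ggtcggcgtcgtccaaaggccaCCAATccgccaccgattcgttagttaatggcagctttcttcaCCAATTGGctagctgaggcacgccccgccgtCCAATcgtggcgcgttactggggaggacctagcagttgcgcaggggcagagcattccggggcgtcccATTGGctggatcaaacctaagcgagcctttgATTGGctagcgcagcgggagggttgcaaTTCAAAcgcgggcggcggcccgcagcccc
Cdc20: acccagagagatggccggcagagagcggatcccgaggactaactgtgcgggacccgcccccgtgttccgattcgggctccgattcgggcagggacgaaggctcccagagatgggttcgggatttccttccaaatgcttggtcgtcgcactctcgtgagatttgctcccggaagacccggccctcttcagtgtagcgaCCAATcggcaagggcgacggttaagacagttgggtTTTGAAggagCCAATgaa
Mcm5 held E2F letters 164 and 149 bases before the start and no CHR match. Top2a held 4 CHR matches, at 179, 140, 120 and 23 bases before the start. The CHR match of Ube2c lay 29 bases and that of Cdc20 18 bases before the start. Mki67 held both kinds, with CHR letters at 116 and 98 bases and E2F letters at 67 bases before the start.

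**Figure D3:**
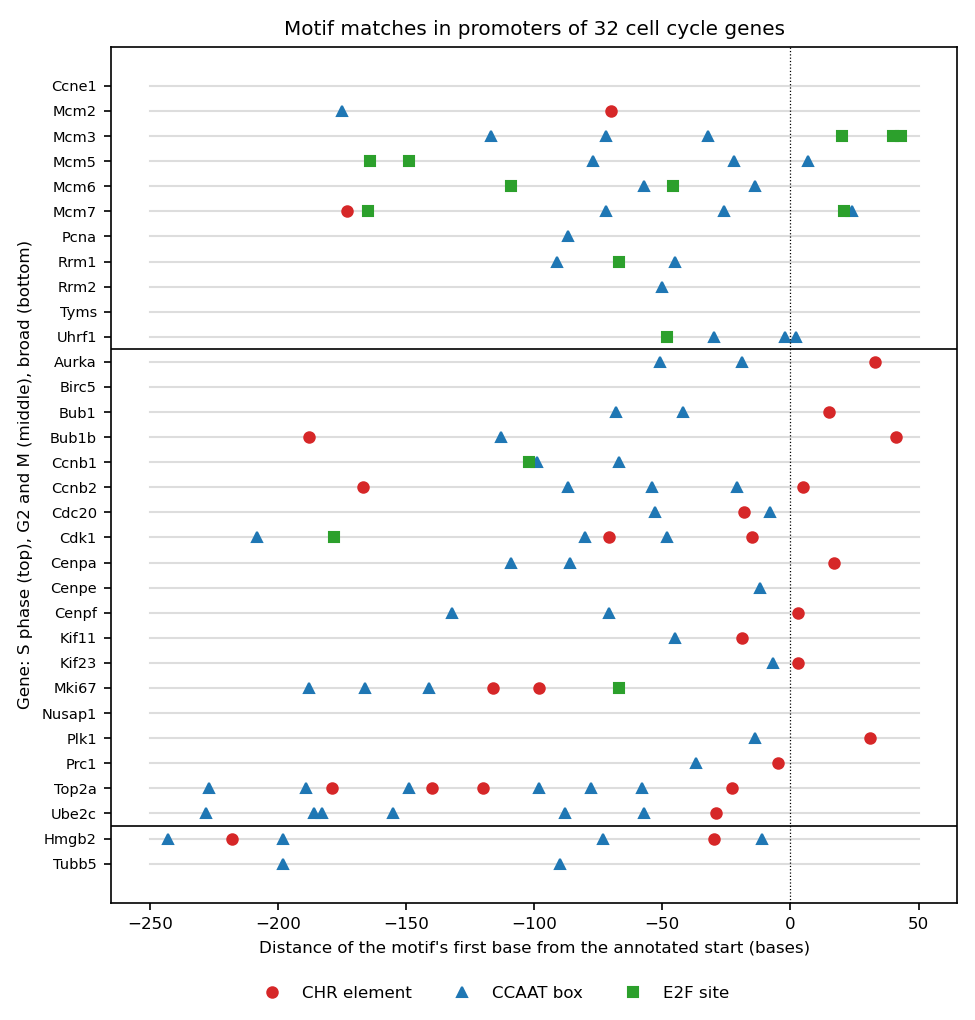
Motif matches by distance in bases of their first base from the transcription start in the 32 matched promoters, grouped as S-phase, G2/M and other members. CHR matches appear in 15 of 19 G2/M rows and 2 of 11 S-phase rows.

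The genes most like the members in pattern were found over the 50 clusters with at least 50 cells, as a description of points that share a library. Pearson's r of log2(CPM + 1) with the summed members was highest for Knl1 (0.958) and Spc24 (0.953), both kinetochore proteins, and the list of 10 went on with Smc4, Smc2, Dlgap5, Nucks1, Shcbp1, Asf1b, Cit and Ska1 (0.934). Among the members themselves, Top2a lay closest to the sum of the others (r = 0.966) and Mcm4 farthest (0.512).

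To ask whether treatment moved these genes, UMIs were summed per mouse and cell type, and each gene was tested with edgeR across all genes. In such sums, fewer cycling cells and less RNA per cycling cell cannot be told apart. Values per mouse are given in the order Untreated, N297A, GA-aFuc (2 mice), GITR/Syn GA-aFuc (2 mice), in scaled CPM. Shares of all genes at an unadjusted p under 0.05 are from edgeR. None was computed for DESeq2, the second tool, so its counts of members at that limit are no result about the members. The contrasts share control mice. Where an Fc-enhanced mouse is left out below, its treatment keeps a single mouse and all spread comes from the other pair. Such counts are no check of stability.

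Macrophages showed no called member in any of the 6 contrasts (0 of 40), and none reached an unadjusted p under 0.05 in edgeR or DESeq2. Among all 14340 genes 0% were called in each contrast except GITR/Syn GA-aFuc against GA-aFuc (0.00697%), and at an unadjusted p under 0.05 in the Fc-enhanced contrast 2.66% were higher and 0.676% lower. Mki67 was at 102, 153, 147, 104, 114 and 140 CPM, so the Untreated mouse was lowest and the N297A mouse highest. Pcna was at 167, 194, 205, 187, 198 and 186 CPM, a narrow range in which the Untreated mouse was again lowest. Top2a was at 184, 228, 223, 136, 190 and 203 CPM, Mcm5 at 48.7, 63.1, 59.5, 43.4, 49.3 and 52.4 CPM, and Stmn1 at 233, 292, 273, 188, 190 and 278 CPM. The N297A mouse was highest in these 3 genes as well, and the second GA-aFuc mouse lowest. Ccnb1 was at 21.9, 21.5, 23.3, 16.2, 17.3 and 20.1 CPM, with no separation of the groups. Rrm2 (24.4, 36.5, 40.03, 25.3, 28.8 and 29.5 CPM) and Cenpe, a kinetochore motor (69.0, 71.0, 67.0, 34.6, 62.8 and 62.3 CPM), had the smallest p of their groups in GA-aFuc against Untreated. Rrm2 overlapped between the groups. Cenpe was lower in all 4 Fc-enhanced mice than in both others, by little in the first GA-aFuc mouse, and was lowest in the second GA-aFuc mouse. The median log2 fold change of the 40 members was -0.12 with Fc-enhanced antibody against the other mice (0.02 over all genes), 0.26 with N297A against Untreated and -0.29 with GA-aFuc against N297A. In the Fc-enhanced contrast 2 members, Ube2c and Cenpe, were lower in all 4 Fc-enhanced mice than in both others, where 8.42% of all genes were.

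Monocytes likewise had 0 of 36 tested members called in any contrast. Of all genes 0.344% were called in the Fc-enhanced contrast, 0.176% in GA-aFuc against Untreated, 0.579% in GA-aFuc against N297A, 0.109% in GITR/Syn GA-aFuc against GA-aFuc and 0% in both remaining contrasts. In the Fc-enhanced contrast 2 members were lower at an unadjusted p under 0.05 in edgeR (2.34% of all genes) and 0 in DESeq2. Ccne2, Ccnb1, Kif20a and Plk1 were too low to test. Bub1b, a spindle checkpoint kinase, had 11.5, 4.19, 4.36, 3.19, 5.58 and 5.25 CPM and the smallest p in GA-aFuc against Untreated (log2 fold change -1.61 ± 0.38 SE, adjusted p = 0.2039). The Untreated mouse alone was high. Leaving out the first GA-aFuc mouse (replicate 2) made 1 member pass in that contrast and 1 in the Fc-enhanced contrast, both lower (2.26% and 2.54% of all genes were then called). Tyms, thymidylate synthase, was at 4.59, 6.28, 7.69, 9.37, 4.68 and 8.69 CPM, with the groups overlapping. The cycling share of monocytes was 0.844%, 1.08%, 3.52%, 1.79%, 3.36% and 1.96%, from 4, 7, 13, 9, 15 and 12 cells, and all 4 Fc-enhanced mice lay above both others. Of these 60 cells 30 held exactly 5 UMIs, and the groups overlapped with a limit of 3 or of 8 UMIs, at a depth of 5000 UMIs, unthinned and by Mki67 or Top2a. Markers of other types separated the same mice in monocytes: the 4 cDC2 markers were at 419 to 424 CPM in the Untreated and N297A mice and 431 to 581 CPM in the Fc-enhanced mice, and the 4 neutrophil markers at 47.1 to 60.1 and 62.5 to 349 CPM. Their part in the share was not tested. Top2a was at 17.5, 14.1, 17.4, 12.6, 22.1 and 19.0 CPM and Pcna at 108, 94.9, 116, 114, 133 and 106 CPM, both with overlap. The summed member level did not separate either, at 804, 762, 932, 771, 967 and 797 CPM. Mki67 and Hmgb2 were higher, and Birc5, Cenpf and Tubb5 lower, in every Fc-enhanced mouse than in both others, where 10.3% of all genes were higher and 10.3% lower.

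In CD8 T cells the Untreated mouse had the highest member level of the 6 (6347, 4899, 4699, 4576, 3417 and 5225 CPM). Of 39 tested members 0 were called in any contrast (0.0117% of all genes in the Fc-enhanced contrast and in GA-aFuc against N297A, 0% in the others). In the Fc-enhanced contrast 6 members were lower at an unadjusted p under 0.05 in edgeR, where 1.84% of all genes were lower, and 2 in DESeq2. The member median was -0.32 with 35 of 39 negative, against 0.01 over all genes. Against Untreated alone the median was -0.41 for N297A, -0.43 for GA-aFuc and -0.51 for GITR/Syn GA-aFuc, and all 3 share the single Untreated mouse. Rrm2 was at 150, 69.6, 80.7, 85.4, 57.4 and 90.4 CPM (-0.86 ± 0.27 SE with GA-aFuc against Untreated, adjusted p = 0.9999), with the Untreated mouse far above the other 5. Birc5, survivin of the chromosomal passenger complex, was at 221, 155, 115, 144, 72.2 and 133 CPM. Aurkb, the kinase of that complex, was at 48.6, 36.5, 21.5, 28.5, 8.20 and 21.1 CPM. Both were higher in the Untreated and N297A mice than in all 4 Fc-enhanced mice. In all, 8 members separated in that direction (Mcm6, Rrm1, Uhrf1, Top2a, Birc5, Cenpe, Aurkb and Plk1; 5.92% of all genes). The 4 cDC1 markers separated the same mice in the CD8 sums, at 253 to 368 CPM in the Untreated and N297A mice and 380.0 to 451 CPM in the Fc-enhanced mice, and their part was not tested. Top2a was at 435, 395, 314, 272, 236 and 352 CPM. Mki67 overlapped at 197, 273, 162, 202, 146 and 202 CPM, and so did Stmn1 at 594, 365, 362, 359, 190 and 466 CPM and Pcna at 291, 257, 235, 250, 190 and 279 CPM. The lowest value of these genes was in the first GITR/Syn GA-aFuc mouse in each case. Leaving out the GITR/Syn GA-aFuc mouse with the highest cycling share (replicate 3) made 3 members pass in the Fc-enhanced contrast (0.351% of all genes were then called), 8 in GITR/Syn GA-aFuc against Untreated (0.702%) and 2 in GITR/Syn GA-aFuc against GA-aFuc (0.426%), all lower.

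NK cells gave 0 called members of 40 in every contrast. Of all genes 0.268% were called in the Fc-enhanced contrast, 0.0536% in GA-aFuc against Untreated, 0.0429% in GA-aFuc against N297A, 0.129% in GITR/Syn GA-aFuc against Untreated, 0.0107% in N297A against Untreated and 0% in GITR/Syn GA-aFuc against GA-aFuc. In the Fc-enhanced contrast 1 member was lower at an unadjusted p under 0.05 in edgeR (5.18% of all genes) and 0 in DESeq2. The member median was 0.04 against 0.02 over all genes. With GA-aFuc against Untreated, 3 helicase members (Mcm3, Mcm4 and Mcm6) were higher and 3 G2/M members (Ube2c, Cenpf and Cenpa) lower at an unadjusted p under 0.05, where 2.35% of all genes were higher and 2.51% lower. Mcm6 was at 72.8, 116, 119, 108, 90.3 and 102 CPM (0.66 ± 0.23 SE with GA-aFuc, adjusted p = 0.9143), and Mcm3 was at 51.7, 67.8, 105, 77, 49.8 and 82.0 CPM. Ube2c was at 87.7, 34.3, 57.0, 16.5, 40.4 and 43.2 CPM (-1.07 ± 0.40 SE, adjusted p = 0.9375), and Cenpf, a kinetochore protein, was at 74.5, 33.5, 52.0, 20.2, 24.4 and 25.5 CPM. For Mcm6 the Untreated mouse was lowest of the 6 and for Ube2c and Cenpf it was highest. The N297A mouse lay within the range of the Fc-enhanced mice in these genes. Mki67 was at 119, 112, 114, 82.6, 86.5 and 164 CPM and Top2a at 182, 172, 204, 86.2, 115 and 253 CPM, with both extremes in Fc-enhanced mice. Leaving out GA-aFuc replicate 2 or 3 made 1 member pass in GITR/Syn GA-aFuc against Untreated (0.328% and 0.49% of all genes were then called), and leaving out replicate 2 also 1 in GA-aFuc against Untreated (0.284%), all lower.

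**Figure D4:**
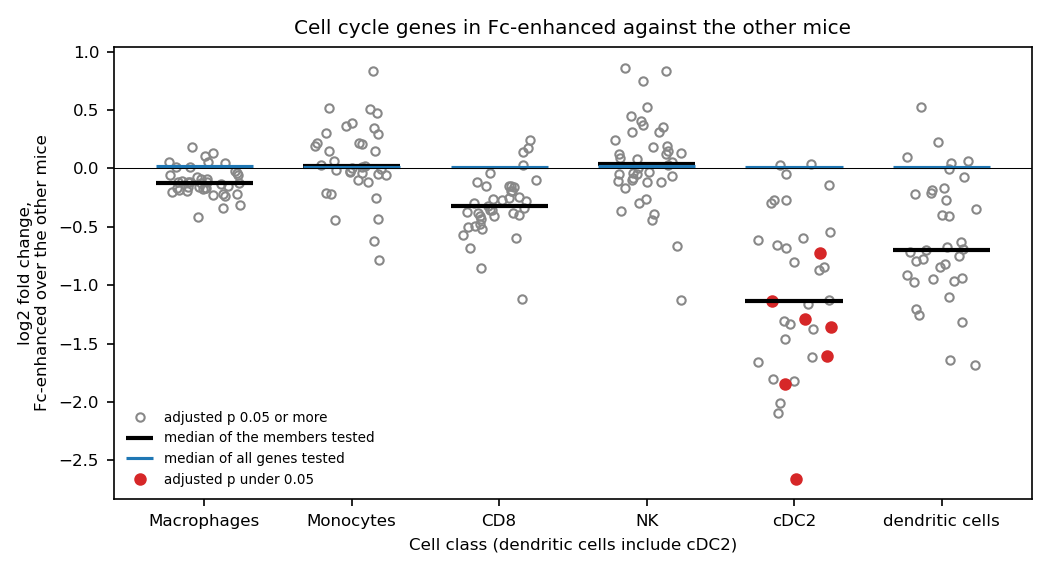
Log2 fold change of each tested member, Fc-enhanced mice against the other mice, by cell type (the last column holds all dendritic cells). Black lines are medians of the members, blue lines medians of all genes, and filled points mark the 7 called members, all in cDC2, where 32 of 34 tested members lie below 0.

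In cDC2, 7 members fell in the Fc-enhanced mice against the other mice (7 of 34 tested, where 0.473% of all 7404 genes were called). They were Mki67, Stmn1, Ube2c, Hmgb2, Top2a, Rrm2 and Birc5. Ccne1, Ccne2, Ccnb1, Aurka, Kif20a and Cdc20 were too low to test. Mki67 was at 93.8, 147, 44.0, 65.7, 13.5 and 40.7 CPM (-1.61 ± 0.28 SE, adjusted p = 0.003896), and Top2a was at 141, 193, 70.9, 91.0, 55.7 and 83.2 CPM (-1.14 ± 0.22 SE, adjusted p = 0.007313). For both genes the 4 Fc-enhanced mice lay below the Untreated and N297A mice. Ube2c was at 55.6, 106.5, 12.2, 15.2, 18.6 and 47.8 CPM (-1.85 ± 0.33 SE, adjusted p = 0.004372). Birc5 was at 76.4, 95.5, 48.9, 22.8, 27.0 and 40.7 CPM (-1.29 ± 0.28 SE, adjusted p = 0.02647). Neither gene overlapped between the groups, the nearest mice for Ube2c being the Untreated mouse and the second GITR/Syn GA-aFuc mouse.

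Among the S-phase members only Rrm2 was called in cDC2, at 33, 55.1, 26.9, 5.06, 3.38 and 1.77 CPM (-2.66 ± 0.51 SE, adjusted p = 0.007433). The first GA-aFuc mouse came close to the Untreated mouse, and the other 3 Fc-enhanced mice were far lower. Pcna was at 116, 105, 152, 83.4, 115 and 104 CPM (0.04 ± 0.23 SE), and Mcm5 was at 31.3, 55.1, 19.6, 20.2, 42.2 and 8.85 CPM. Both overlapped, and the first GA-aFuc mouse was highest for Pcna. Stmn1 was at 181, 235, 147, 65.7, 70.9 and 49.5 CPM (-1.36 ± 0.23 SE, adjusted p = 0.003896). Hmgb2, a chromatin protein abundant in dividing cells, was at 782, 630, 506, 437, 363 and 402 CPM (-0.72 ± 0.13 SE, adjusted p = 0.004608). Both genes separated the groups. By role, 4 of 19 tested G2/M members, 1 of 12 S-phase members and 2 of the 3 others were called, and the group medians were -1.37 for G2/M and -0.28 for S phase. All 19 G2/M members had negative fold changes. In all, 20 members were lower in every Fc-enhanced mouse than in both others and 0 higher, where 7.67% of all genes were lower and 6.83% higher. At an unadjusted p under 0.05, 21 members were lower (3.61% of all genes). The member median was -1.13 against 0.02 over all genes.

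The separate cDC2 contrasts gave fewer calls. Ube2c fell with GA-aFuc against N297A (-2.94 ± 0.48 SE, adjusted p = 0.005665; 0.567% of all genes called), and Hmgb2 fell with GITR/Syn GA-aFuc against Untreated (-1.03 ± 0.18 SE, adjusted p = 0.02298; 0.054% of all genes called). GA-aFuc against Untreated gave 0 (0.257% of all genes called), with 12 members lower at an unadjusted p under 0.05 in edgeR (3.2% of all genes) and 2 members in DESeq2. GITR/Syn GA-aFuc against GA-aFuc gave 0 (0.405%), with 1 higher and 4 lower at an unadjusted p under 0.05 in edgeR (4.04% and 4.11% of all genes) and 1 in DESeq2. N297A against Untreated gave 0 (0.122%), with 1 higher and 1 lower in edgeR (2.46% and 2.35%) and 0 in DESeq2. The member medians were -0.79, 0.02 and 0.23.

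These cDC2 calls rested on few cells and on 1 tool. DESeq2 called 0 of them in the Fc-enhanced contrast, with 9 members at an unadjusted p under 0.05. Without the N297A mouse 1 was called in cDC2 (0.0538% of all genes) and without the Untreated mouse 5 (0.412%). Leaving out an Fc-enhanced mouse gave 14 (GA-aFuc replicate 2; 1.45% of all genes), 11 (GA-aFuc replicate 3; 1.21%), 8 (GITR/Syn GA-aFuc replicate 2; 0.798%) and 12 (GITR/Syn GA-aFuc replicate 3; 1.04%). In those last fits all spread came from the pair left whole, so their higher counts do not show that the calls are stable. Cycling cDC2 numbered 7 of 47, 8 of 48, 4 of 33, 2 of 38, 2 of 52 and 2 of 49 cells, or 14.9%, 16.7%, 12.1%, 5.26%, 3.85% and 4.08%. The first GA-aFuc mouse thus lay nearer to the Untreated mouse than to the other 3 Fc-enhanced mice. The groups overlapped in this share with a limit of 3 UMIs, at a depth of 5000 UMIs, unthinned and without the cluster described next. One cDC2 cluster of 18 cells, cluster 64, chosen here after its values were seen, held 11.3% of the cDC2 UMIs and 56.6% of the members' UMIs. It carried 84.2% of the Mki67, 84.9% of the Top2a and 85.6% of the Ube2c UMIs of cDC2. Its cells numbered 6, 6, 2, 1, 1 and 2 in the 6 mice. All 18 of its cells were cycling, among 25 cycling cDC2 in all. Leaving it out thus takes away most cycling cDC2 by construction, and a loss of calls is no test. Without it, 0 of 15 testable members were called (0 at an unadjusted p under 0.05) with a median of 0.04. Mki67, Ube2c and Rrm2 were then too low to test, so their calls were left untested. The member level without cluster 64 was 1036, 898, 1206, 818, 1323 and 755 CPM, with groups that overlapped. The authors' annotation of the other library, whose counts were not used here, placed 2 of 26 and 2 of 27 Untreated, 4 of 47 and 2 of 32 N297A, 2 of 34 GA-aFuc and 0 of 34 GITR/Syn GA-aFuc cDC2 in the same cluster.

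**Figure D5:**
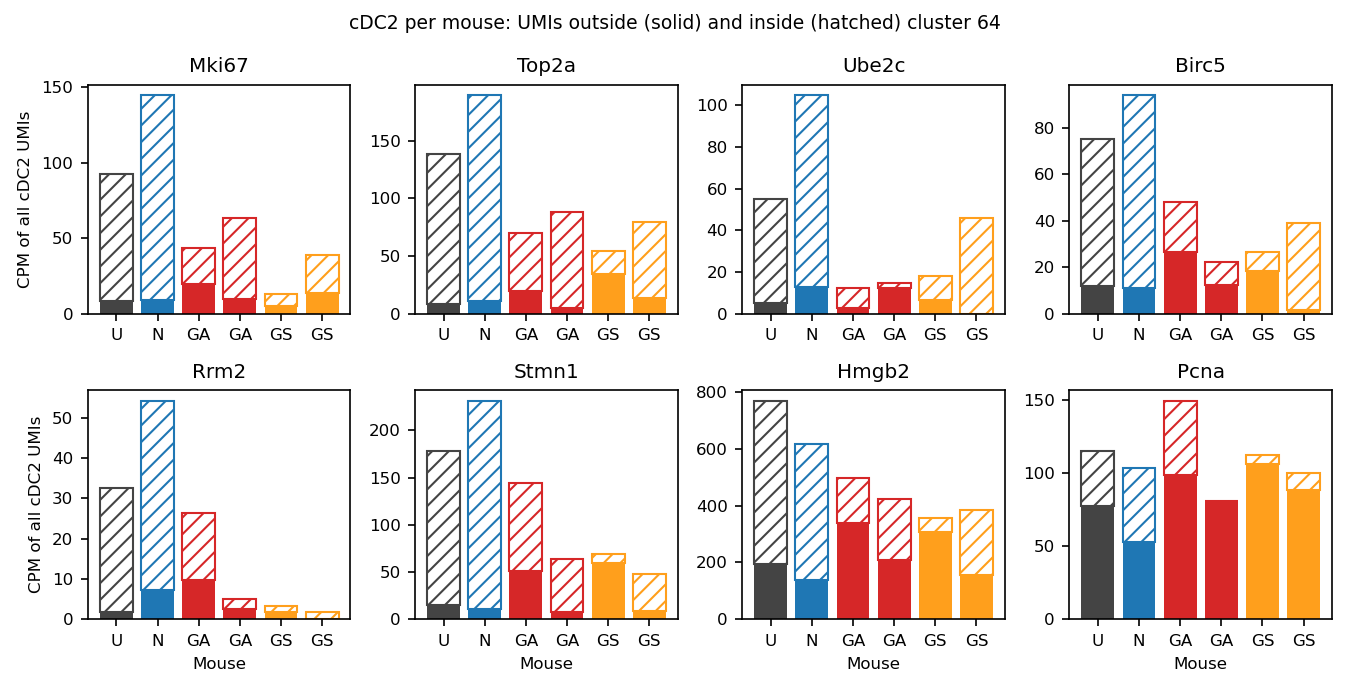
Levels of the 7 called members and of Pcna, which was not called, in cDC2 of each mouse (U, Untreated; N, N297A; GA, GA-aFuc; GS, GITR/Syn GA-aFuc), in CPM of all cDC2 UMIs, with the part from cluster 64 hatched. For the called members the bars of the U and N mice are tallest, and over all mice 84.2% of the Mki67, 84.9% of the Top2a and 85.6% of the Ube2c UMIs are in the hatched part.

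In the cDC2 sums, the 4 pDC markers were at 1021 to 1183 CPM in the Untreated and N297A mice and 868 to 1002 CPM in the Fc-enhanced mice, without overlap. The 4 CD4 T cell markers were at 0 in the first 2 mice and at 1.65 to 9.62 CPM in the Fc-enhanced mice, with 1 of the 4 at 0 throughout. B cell markers were at 6.84 to 19.9 and 0 to 7.21 CPM. Macrophage markers (1013 to 1473 and 699 to 1928 CPM), cDC2 markers (474 to 525 and 489 to 814 CPM) and epithelial markers of the tumour (32.5 to 63.3 and 26.4 to 64.5 CPM) overlapped. Their part in the result was not tested. Over all dendritic cells together 0 of 36 tested members were called (0.0234% of all genes), 16 were lower at an unadjusted p under 0.05 in edgeR (2.65% of all genes) and 4 members passed that limit in DESeq2. Their median was -0.70, and 15 were lower in every Fc-enhanced mouse than in both others (7.02% of all genes). Leaving out 1 Fc-enhanced mouse (GA-aFuc replicates 2 and 3, GITR/Syn GA-aFuc replicates 2 and 3) gave 9, 3, 1 and 6 called members, all lower, where 1.01%, 0.835%, 0.481% and 0.784% of all genes were called, and leaving out cluster 64 gave 0 of 29. Top2a was at 176, 144, 94.0, 74.0, 105 and 126 CPM there (-1.07 ± 0.24 SE with GA-aFuc against Untreated, adjusted p = 0.2458), with the Fc-enhanced mice below both others. Rrm1 was at 40.05, 44.4, 17.4, 11.3, 34.9 and 42.7 CPM, with low values in the GA-aFuc pair alone.

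A list of 90 other cell cycle genes (inhibitors, G1 cyclins and kinases, transcription factors, replication and mitosis) was tested in the same fits. In the Fc-enhanced contrast 1 rose and 2 fell of 64 tested in cDC2 (0.473% of all genes called), 1 fell of 78 in monocytes (0.344%), and 0 were called of 89 in macrophages (0%), 86 in CD8 T cells (0.0117%), 85 in NK cells (0.268%) and 71 in all dendritic cells (0.0234%). At an unadjusted p under 0.05 in edgeR, 0 were higher and 2 lower in macrophages, where 2.66% of all genes were higher and 0.676% lower. The numbers were 3 and 7 in CD8 T cells (2.15% and 1.84%), 2 and 3 in NK cells (4.27% and 5.18%), and 6 and 2 in monocytes (6.2% and 2.34%). They were 3 and 22 in cDC2 (3.7% and 3.61%) and 2 and 14 in all dendritic cells (3.48% and 2.65%). DESeq2 called 1 of the list in macrophages, 1 in monocytes and 0 in the other types. The share of all genes that DESeq2 called is not given beside these counts, so they are no result about the list. In cDC2 the kinetochore genes Knl1 (31.3, 60.6, 19.6, 22.8, 5.06 and 7.08 CPM, -1.92 ± 0.40 SE, adjusted p = 0.01655) and Spc25 (33, 31.2, 4.89, 2.53, 3.38 and 5.31 CPM, -2.93 ± 0.63 SE, adjusted p = 0.02129) fell. Both were lower in all 4 Fc-enhanced mice than in both others, and both were too low to test without cluster 64. Cdkn1a, which encodes the kinase inhibitor p21, rose, at 559, 553, 797, 794, 758 and 835 CPM (0.52 ± 0.12 SE, adjusted p = 0.04852). The groups did not overlap, and the fold change was 0.51 without cluster 64, but the call was lost in 9 of 14 alternatives. Gadd45b, a stress-induced growth arrest gene, rose in cDC2 with GA-aFuc against N297A (1.66 ± 0.33 SE, adjusted p = 0.00987), at 165, 58.7, 159, 215, 150 and 154 CPM, with the N297A mouse alone low.

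Ccnd3, cyclin D3 of the G1 phase, was called lower in the Fc-enhanced contrast in monocytes only, and in NK cells in another contrast. In monocytes it fell, at 143, 147, 83.0, 96.0, 55.3 and 76.4 CPM (-0.91 ± 0.16 SE, adjusted p = 0.03215). The call was lost in 3 of 14 alternatives (without the Untreated mouse, the N297A mouse or GITR/Syn GA-aFuc replicate 2), over which the adjusted p ran from 2.348e-06 to 0.4572. Some of the 14 could not change the result and were no check of it. Leaving out the cDC2 cluster removed no monocyte and no NK cell. Leaving out the 1% of cells with the most UMIs left the member level of monocytes unchanged in every mouse. In NK cells Ccnd3 fell with GITR/Syn GA-aFuc against Untreated, at 296, 242, 212, 187, 148 and 141 CPM (-1.04 ± 0.19 SE, adjusted p = 0.04713). It was lost there in 4 of 14 alternatives (DESeq2, without either GITR/Syn GA-aFuc mouse, or without the 1% of cells with the most UMIs), with adjusted p from 0.0003953 to 0.5987. In macrophages it was at 93.6, 87.6, 43.5, 54.4, 30.7 and 47.6 CPM (-1.05 ± 0.20 SE in the Fc-enhanced contrast, adjusted p = 0.7545 in edgeR), which was not called there but was called by DESeq2 (adjusted p = 0.008438), by edgeR with no filter on low counts and by edgeR without either GA-aFuc mouse. Over these settings the adjusted p ran from 8.541e-07 to 1. The share of all genes called in each of these macrophage settings is not given. In each of the 3 types all 4 Fc-enhanced mice lay below the Untreated and N297A mice. Of all genes 10.3% did so in monocytes and 8.42% in macrophages, and the share for NK cells is not given. Ccnd3 values of the other types are not given here. Gadd45a in monocytes, at 9.18, 10.1, 17.4, 28.1, 14.3 and 18.5 CPM, separated the same mice in the other direction and was not called in GA-aFuc against Untreated (adjusted p = 0.2711).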

How the data were processed

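The deposited matrix holds raw UMI counts of every droplet. Cell Ranger made it, per the file headers, and the submitters' processing notes list GRCh38 (human) and GRCm39 (mouse). Cell type, cluster and treatment are the authors' labels per cell, as deposited. The 6 mice were told apart by runs of rising barcodes in that annotation, and replicate numbers only follow the order of these runs within a treatment. The sources used here do not say how doublets were treated, and no caller was run. Human features held 0.591% of the UMIs and stayed in the library sizes.

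UMIs were summed per mouse and type (132231615 in all annotated cells) and tested with edgeR 4.0.16 in R 4.3.3 (TMM scaling, filterByExpr, quasi-likelihood test, Benjamini-Hochberg adjustment over all genes, called at 0.05), in 1 fit over the 6 mice, with DESeq2 1.42.0 as an alternative. Changes on simulated data for cDC2 were recovered for 36 of 100 genes at 2-fold and 89 of 100 at 4-fold (7056 genes, 4 false calls). Motif shares and cycling cells were computed in Python 3.11.15. The members, the list of 90 genes and the tests were chosen with earlier results of these data known. Named are mainly members called in any type and contrast and those with the smallest p per role in GA-aFuc against Untreated. Mki67, Top2a, Pcna, Mcm5, Ccnb1 and Stmn1 were named as well. Others fall outside this rule, among them Aurkb in CD8 T cells, Tyms in monocytes, Mcm3 and Cenpf in NK cells, and Cdc20. In CD8 T cells Ccnb2 had the smallest p of the G2/M members in GA-aFuc against Untreated (log2 fold change -0.91). It was not described there. Cluster 64 and Ccnd3 in macrophages were singled out after their values were seen.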

Additional observations from a re-analysis of the deposited data

Results flagged for a closer look

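The share of cycling cells went opposite ways in 2 types. In cDC2 all 4 Fc-enhanced mice lay below the Untreated and N297A mice (means of 6.33% and 15.8%, a difference of -9.45 percentage points), and in monocytes all 4 lay above both (means of 2.66% and 0.963%, a difference of 1.70 points). This difference between the types was not tested. The groups overlapped with a limit of 3 UMIs, at a depth of 5000 UMIs and unthinned in both types, with a limit of 8 UMIs and by Mki67 or Top2a in monocytes, and without cluster 64 in cDC2. They stayed apart in both types at a depth of 2000 UMIs. Of the 60 cycling monocytes 30 held exactly 5 UMIs, the lowest number called cycling.

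Barcodes outside the annotation met the cycling rule as well. Of 4334 such barcodes deep enough to score among 5815 with at least 500 UMIs, 1303 (30.1%) were cycling. Their cycling barcodes had a median of 28142 UMIs. The top hashtag held under 80% of the hashtag counts in 44.1% of the cycling and 41.8% of the other barcodes, against 0 of 2034 annotated cycling cells. Annotated cells had already been given a treatment by the authors, so the sets compared are unlike. No doublet caller was run, so single cells were not told apart from droplets with several cells among the barcodes outside the annotation.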

How the results depend on the processing

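Across 44 results and 565 alternatives, 413 were labelled the same. Single genes kept their direction and side of the threshold, and levels and shares moved by less than the spread between mice. Counts of called members stayed within a set ratio of the main count. These include alternatives that could not change a result, such as leaving out the cDC2 cluster for genes tested in other cell types. Counts of called members, summed over cell types, changed most. The share of all genes called in the same setting is not given beside these sums. They describe the settings and are no result about the members. Where an Fc-enhanced mouse was left out, all spread came from the other pair. With no filter on low counts they were 11 (Fc-enhanced contrast), 6 (GA-aFuc against Untreated), 3 (GA-aFuc against N297A), 3 (GITR/Syn GA-aFuc against Untreated) and 1 (GITR/Syn GA-aFuc against GA-aFuc), and with a stricter filter 3 in the first and 0 in both single-call contrasts. Without the 1% of cells with the most UMIs they were 12, 1, 4 and 3 in the first 4 of these. Equal cells per mouse gave 2 in both single-call contrasts, and the compared treatments alone gave 4, 8 and 6 (GA-aFuc against Untreated, GA-aFuc against N297A, GITR/Syn GA-aFuc against Untreated). DESeq2 gave 0 in every contrast, and RLE size factors gave 0 for GITR/Syn GA-aFuc against Untreated. Leaving out 1 mouse gave 1 to 24 in the Fc-enhanced contrast, 0 to 13 for GA-aFuc against Untreated, 1 to 12 for GA-aFuc against N297A, 1 to 11 for GITR/Syn GA-aFuc against Untreated and 0 to 4 for GITR/Syn GA-aFuc against GA-aFuc, where a lone mouse is assumed to vary like the pairs. The count of 1 in the first was without the N297A mouse. The highest counts were without GA-aFuc replicate 2, except for GITR/Syn GA-aFuc against Untreated (without GITR/Syn GA-aFuc replicate 3), and both settings gave the 4 in the last contrast.

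Without cDC2 cluster 64, an alternative chosen after seeing the data, 0 members were called in the Fc-enhanced contrast, in GA-aFuc against N297A and in GITR/Syn GA-aFuc against Untreated, with 15 members left to test in cDC2. Mki67, Rrm2 and Ube2c, the only member called in GA-aFuc against N297A, were not among those 15. Their calls were thus left untested. All cells of the cluster were cycling, so this alternative removes most cycling cDC2 by construction and is no test of the calls. Signs turned for Stmn1 (1.03), Hmgb2 (0.37), Top2a (0.58) and Birc5 (0.044) in the Fc-enhanced contrast, and for Hmgb2 in GITR/Syn GA-aFuc against Untreated (0.010) and GA-aFuc against Untreated (0.31). The member level became 1006 CPM in cDC2 and 1434 in all dendritic cells, and the cycling share 3.05% and 6.27%.

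Without Stmn1, Tubb5 and Hmgb2 the member level was 2804 CPM in CD8 T cells, 1949 in macrophages, 1714 in NK cells, 1072 in cDC2, 1094 in all dendritic cells and 399 in monocytes. With a limit of 3 UMIs the cycling share was 46.7%, 42.1%, 32.7%, 22.6%, 21.7% and 11.1% in that order, at a depth of 5000 UMIs it was 46%, 39.5%, 34.4%, 18.5%, 18.2% and 6.61%, and unthinned it was 56.6%, 68.1%, 43.1%, 43.4%, 42.0% and 26.4%, the setting in which macrophages passed CD8 T cells. With a limit of 8 UMIs the share was 20.7% in macrophages, 11.1% in NK cells and 0.210% in monocytes, and at 2000 UMIs 22.2%, 11.9% and 0.679%. With at least 1 UMI of Mki67 or Top2a it was 7.62% in monocytes and 16.0% in all dendritic cells. The cause of these changes was not tested beyond the construction of each setting.

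No paired analysis of the treatments was possible, because each mouse belonged to a single treatment group and the labels pair no mice across groups. The number of cells limits the precision: cDC2 numbered 33 to 52 per mouse, and types with 23 to 63 cells in all gave no test.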

Other observations

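The share of CD8 T cells in cluster 38, in which all 92 cells of the library analysed here were cycling, ran from 10.5% to 23.5% over the 12 mice of both libraries by the authors' annotation. The share of NK cells in cluster 58 ran from 0.917% to 14.9%, that of macrophages in cluster 4 from 3.57% to 8.49%, and that of macrophages in cluster 56 from 0.700% to 1.77%. Only the annotation of the other library was used for these values.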
